A study of Mus musculus with 23 samples.

Results

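The genes described here are regulators of embryo implantation in the mouse uterus: the cytokine Lif, its receptor genes Lifr and Il6st, the transcription factor gene Stat3, the growth factor genes Hbegf, Areg and Bmp2, and the homeobox genes Msx1 and Msx2. They were chosen by name, as 9 listed receptivity genes, and found by matching the Ensembl identifiers of a gene count table to mouse symbols. Of the 9, 8 matched a row among the 18682 features of the table, and Areg was not analysed here. The rows were ENSMUSG00000034394 (Lif), ENSMUSG00000054263 (Lifr), ENSMUSG00000021756 (Il6st), ENSMUSG00000004040 (Stat3), ENSMUSG00000024486 (Hbegf), ENSMUSG00000027358 (Bmp2), ENSMUSG00000048450 (Msx1) and ENSMUSG00000021469 (Msx2). The libraries were bulk RNA sequencing of endometrium pressed out of 1 uterine horn each, from female C57BL/6 mice. The groups were 6 horns named SHAM, 5 named PBS (saline), 6 named HG (a hydrogel, by the series' title a hybrid one derived from endometrium) and 6 named HG+ORG (the hydrogel with human endometrial organoids), and horns are called below by group and replicate, with replicates numbered 1 to 23 over all groups. Per the series' description, ethanol of 70 degrees was used to damage the uterus, injection into the horns followed 4 days later, and 21 mice were killed for tissue 2 weeks after injection. The sources used here do not say what the SHAM horns received, at which stage of the estrous cycle tissue was taken or which horns came from the same mouse. If all 23 horns came from those 21 mice, some share an animal, and p-values that treat the horns as separate can then be too small or too large, depending on which horns those are. The mice were immunocompetent by the series' title, and reads of human organoid cells are not told apart from mouse reads by an alignment to the mouse genome.

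LIF is a cytokine of the interleukin-6 family that uterine glands release under estrogen just before the embryo attaches. It binds a receptor made of LIFR and the shared subunit gp130, encoded by Il6st, and the receptor activates STAT3 through Janus kinases in the luminal epithelium. HB-EGF is an EGF-family ligand made by the epithelium around the attaching embryo, BMP2 is required for stromal cells to decidualize, and MSX1 and MSX2 are repressive homeobox factors that are present in the epithelium before attachment and fall at its onset.

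Across horns, the levels of Lif, Stat3, Msx1 and Msx2 moved together or in opposite directions, as described below, and the 250 bases before the start of each of these genes are therefore shown. The sequences are from RefSeq, build GRCm38.p6, and are printed 5′ to 3′ on the strand of the gene. Capitals mark matches, on either strand, to the AP-1 motif TGANTCA, the CCAAT motif (ATTGG on the opposite strand) and the homeobox motif TAATTA.
Lif: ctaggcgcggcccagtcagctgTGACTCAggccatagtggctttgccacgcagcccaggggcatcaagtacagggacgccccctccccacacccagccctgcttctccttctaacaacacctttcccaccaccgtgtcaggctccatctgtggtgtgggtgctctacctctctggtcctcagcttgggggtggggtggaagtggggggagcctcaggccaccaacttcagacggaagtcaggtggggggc
Stat3: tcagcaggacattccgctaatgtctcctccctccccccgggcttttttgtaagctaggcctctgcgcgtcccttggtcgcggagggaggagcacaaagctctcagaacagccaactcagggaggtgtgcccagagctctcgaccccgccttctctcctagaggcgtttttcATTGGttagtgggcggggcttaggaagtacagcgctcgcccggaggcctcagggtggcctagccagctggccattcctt
Msx1: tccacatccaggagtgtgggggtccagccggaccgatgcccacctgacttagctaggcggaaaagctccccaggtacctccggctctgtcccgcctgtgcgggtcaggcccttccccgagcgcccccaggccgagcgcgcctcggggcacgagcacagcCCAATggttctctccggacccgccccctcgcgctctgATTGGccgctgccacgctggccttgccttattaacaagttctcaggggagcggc
Msx2: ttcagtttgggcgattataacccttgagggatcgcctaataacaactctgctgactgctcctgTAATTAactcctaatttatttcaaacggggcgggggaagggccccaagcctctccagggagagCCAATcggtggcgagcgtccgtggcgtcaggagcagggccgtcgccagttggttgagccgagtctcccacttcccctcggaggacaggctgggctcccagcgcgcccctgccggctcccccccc
The Lif window lies at chr11:4257318-4257567 on the plus strand and held 1 AP-1 match that starts at -228, counting back from the gene's start. The Stat3 window lies at chr11:100939541-100939790 on the minus strand and held 1 CCAAT match at -79. The Msx1 window, at chr5:37824586-37824835 on the minus strand, held CCAAT matches at -91 and -54. The Msx2 window, at chr13:53472781-53473030 on the minus strand, held the homeobox match at -187 and a CCAAT match at -124. Among 32841 upstream windows of the same length, 6.75% held the AP-1 motif, 33.9% the CCAAT motif and 4.84% the homeobox motif. The STAT motif TTCNNNGAA, which 7.02% of windows held, had no match in the windows of Lif, Lifr, Il6st, Stat3, Msx1 or Msx2. The second homeobox motif CAATTA (7.17% of windows) and the TATA motif TATAAA (12.4%) had no match in the printed windows, and the GC box GGGCGG (32.7%) had 1 each in those of Stat3, Msx1 and Msx2, left in lower case. These matches describe letters in a window and are not measured binding sites.

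Total counts ranged from 7920918 to 14902952 per library, with a median of 12701407. The TMM factors, which scale each library's size, were lowest in HG+ORG 18 (0.7021), SHAM 3 (0.7563) and HG+ORG 21 (0.7992). In the other horns they ran from 0.9115 to 1.131. A low factor raises the CPM of every gene in that horn. All 12 markers of uterine epithelium were tested, and their mean level lay between 6.17 and 10.22 log2 CPM (the log of counts divided by effective library size, with a prior count of 2). The 10 stromal markers were low in PBS 8 and PBS 9, with mean levels of 0.44 and 0.45, against 7.93 in the highest horn, HG 14. HG+ORG 18 stood apart, with the lowest epithelial level (6.17), a macrophage level of 9.40 and a neutrophil level of 7.44. SHAM 5 and SHAM 6 were more alike than any other pair of horns in a group, with a chi-square of 2.8 per degree of freedom against 16.5 for the next pair. They differed by more than counting noise and were kept as separate horns, though this does not show that they are independent samples. In bulk tissue, fewer cells of a type and less RNA per cell cannot be told apart.

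All 8 genes passed the filter on low counts and entered 1 edgeR fit with the other genes, 17708 in all. None of the 8 was called in any of the 6 comparisons between groups, or in the test of any difference among the 4 groups, at a Benjamini-Hochberg adjusted p under 0.05 with edgeR's quasi-likelihood test. The share of all genes called by the same rule was 0% in each of these 7 tests. DESeq2 and limma-voom also called none of the 8, while DESeq2 called 281 genes (1.59%) in HG against SHAM. At an unadjusted p under 0.05, edgeR placed 0 of the 8 in PBS against SHAM, where 2.17% of all genes met that level. One of the 8 met it in each of the other 5 comparisons: Bmp2 in HG against SHAM (background 11.3%), Lifr in HG+ORG against SHAM (9.91%), Msx2 in HG against PBS (3.37%), Lif in HG+ORG against PBS (6.09%) and Il6st in HG+ORG against HG (9.81%). In the 4-group test 0 of the 8 met it, beside 10.1% of all genes. A share of 1 in 8 is the smallest above 0 that 8 genes can give, so nothing particular to these genes is read from it. The 6 comparisons also share groups. Only Bmp2 in HG against SHAM had groups that did not overlap, where 1.43% of all genes had none. In the other comparisons the groups of all 8 genes overlapped, and non-overlapping genes made up 0.294% of all genes in PBS against SHAM, 0.164% in HG+ORG against SHAM, 0.152% in HG against PBS, 0.107% in HG+ORG against PBS and 0.181% in HG+ORG against HG. The median fitted log2 fold of the 8 genes was -0.02 in PBS against SHAM, where the median of all genes was 0.02. It was -0.28 in HG+ORG against PBS, beside 0.05 for all genes, and between -0.07 and 0.04 in the other 4 comparisons, beside 0.00 to 0.06.

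The spread between horns differed from gene to gene. On a scale comparable between genes, CPM per kilobase of exon, the median level over 23 horns was 187 for Msx1, 36.1 for Il6st, 22.6 for Stat3, 12.4 for Msx2, 9.29 for Lifr, 6.55 for Hbegf, 2.71 for Lif and 0.308 for Bmp2. The SD of log2 CPM over all horns was 1.67 for Lif, larger than that of 93.9% of genes tested, 1.46 for Bmp2 (90.4%), 1.38 for Msx1 (88.7%) and 1.21 for Msx2 (84.7%). It was 0.74 for Il6st, 0.55 for Lifr, 0.42 for Stat3 and 0.37 for Hbegf, and the median gene had an SD of 0.56. In all 8 genes the spread within groups was larger than the spread of the group means: for Lif the pooled SD within groups was 1.71 and the SD of the 4 group means was 0.60, and for Stat3 these were 0.45 and 0.06.

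Lif, the cytokine ligand, varied widely between horns in 3 of the 4 groups. In PBS it read 10.5, 6.53, 6.92, 15.7 and 19.8 CPM in replicates 7 to 11. In SHAM it ranged from 10.2 to 149 CPM with a median of 13.5, in HG from 5.04 to 96.5 with a median of 45.2, and in HG+ORG from 6.90 to 259 with a median of 12.2. Thus 7 horns lay above every PBS horn: SHAM 3 and 4, HG 13, 14 and 16, and HG+ORG 19 and 21. The lowest of these held 36.8 CPM and the next horn below them 19.8 CPM, and this limit was chosen after the values were seen. Because the highest PBS horn set the limit, no PBS horn can lie above it. Each other group overlapped PBS through its low horns. HG+ORG 19 stood at 5.21 log2 CPM, between PBS 11 at 4.32 and HG 14 at 6.33. The highest horn, HG+ORG 21, was 51.4-fold above the lowest, HG 12. The mean of log2 CPM was 4.75 ± 1.95 in HG (SD, n = 6), 4.70 ± 1.78 in SHAM (n = 6), 4.42 ± 1.94 in HG+ORG (n = 6) and 3.46 ± 0.70 in PBS (n = 5), and no neighbours in this order differed beyond their spread.

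In PBS against SHAM the fitted log2 fold of Lif was -2.08 (SE 1.06, edgeR adjusted p = 1, 95% interval -4.28 to 0.13), and without SHAM 3 it was -1.39. Against PBS, Lif was 2.23 log2 units higher in the fit for HG+ORG (SE 1.07, edgeR adjusted p = 0.819, interval 0.01 to 4.45). That value rested on 1 library: without HG+ORG 21 the fold was 0.37 (SE 0.88, edgeR adjusted p = 0.999). In HG against PBS it was 2.06 (SE 1.06, edgeR adjusted p = 0.991), with an interval from -0.15 to 4.26. The 3 comparisons share the PBS horns, and none of these values passed the adjusted threshold. Between the other groups the intervals were wide, for example -2.00 to 1.96 in HG against SHAM around a fold of -0.02. For HG+ORG the fitted fold was 0.15 against SHAM and 0.18 against HG, while the mean log2 CPM differed by -0.28 and -0.33, so fit and means had opposite signs. Without HG+ORG 21 the fitted folds were -1.75 and -1.70.

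Hbegf, the EGF-family ligand of the epithelium, was the steadiest of the 8 genes. It read 30.8, 33.9, 22.0, 40.4 and 30.7 CPM in PBS 7 to 11. It ranged from 28.6 to 37.5 CPM in SHAM (median 30.7), from 24.7 to 38.1 in HG (median 33.6) and from 22.2 to 73.3 in HG+ORG (median 38.3). All groups overlapped, and HG+ORG 21, the horn with the most Lif, was also the horn with the most Hbegf. The fitted log2 fold in PBS against SHAM was 0.00 (SE 0.23, interval -0.48 to 0.48), and the sign of a value this close to 0 depended on the settings used. In HG+ORG against PBS it was 0.34 (SE 0.23, edgeR adjusted p = 0.913, interval -0.14 to 0.83), and without HG+ORG 21 it was 0.08. The order of the group means was HG+ORG (5.21 ± 0.64 log2 CPM), HG (5.01 ± 0.21), SHAM (4.98 ± 0.13) and PBS (4.96 ± 0.32), and no neighbours differed beyond their spread.

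Bmp2, the ligand for stromal decidualization, was low in every library and highest in HG. In PBS it stood at 3.71, 0.0674, 0, 4.63 and 0.845 CPM in replicates 7 to 11, from 59, 1, 0, 54 and 12 counts. The 0 of PBS 9 allows up to 0.241 CPM (3 counts), for counting error only. SHAM ranged from 0.494 to 1.19 CPM (median 1.00), HG from 1.45 to 5.30 (median 3.36) and HG+ORG from 0.224 to 3.63 (median 0.864). All 6 HG horns lay above all 6 SHAM horns, whereas PBS and HG+ORG spanned both. The groups' means were 1.76 ± 0.61 log2 CPM in HG, 0.21 ± 1.45 in HG+ORG, 0.07 ± 0.39 in SHAM and -0.12 ± 2.27 in PBS.

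In HG against SHAM the fitted log2 fold of Bmp2 was 1.90 (SE 0.82, edgeR adjusted p = 0.367, interval 0.21 to 3.59), with Bmp2 higher in 6 of 6 HG horns. Fitted on these 2 groups alone the fold was 1.91 and edgeR's adjusted p was 0.0323, where 386 of 16216 genes (2.38%) were called. Over the other alternatives the adjusted p of Bmp2 ran up to 0.82, with 0.196 from DESeq2 and 0.44 from limma-voom. In PBS against SHAM the fitted fold was 0.99 (SE 0.84), while the difference of the mean log2 CPM was -0.19, since 2 PBS horns were high and 2 were near 0. The same split gave -0.27 (SE 0.83) in the fit and 0.33 in the mean log2 CPM for HG+ORG against PBS.

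Bmp2 moved over horns with markers of endothelium, stroma and smooth muscle. Over 23 horns its Spearman rho was 0.87 with the mean of 8 endothelial markers (8 of 8 tested), 0.86 with 10 stromal markers (10 of 10) and 0.74 with 10 smooth muscle markers (10 of 10). These are descriptions over libraries that share their depth and tissue makeup. The endothelial markers summed to 59.1 to 638 CPM in HG, 8.22 to 87.3 in SHAM, 2.81 to 490 in PBS and 6.49 to 407 in HG+ORG. The stromal markers summed to 368 to 4370 CPM in HG, 144 to 772 in SHAM, 16.4 to 4410 in PBS and 134 to 16400 in HG+ORG. The smooth muscle markers summed to 85.3 to 3370 CPM in HG, 50.0 to 129 in SHAM, 26.4 to 1610 in PBS and 27.1 to 512 in HG+ORG. PBS 8 and PBS 9, the horns with 1 and 0 Bmp2 counts, had endothelial means of -0.86 and -1.28 log2 CPM. Tie1 had no count in either, Erg none in PBS 8 and Emcn none in PBS 9, and of the smooth muscle markers Myocd had no count in 9 of the 23 horns. PBS 7 and PBS 10, the PBS horns with most Bmp2, had endothelial means of 5.39 and 5.67. With the smooth muscle score as a covariate, the Bmp2 fold in HG against SHAM was 0.70 (edgeR adjusted p = 0.82). That score itself averaged 4.92 ± 2.00 in HG and 2.18 ± 0.45 in SHAM, so this fit cannot tell the marker level from the group. The part of the smooth muscle, endothelial and stromal markers in the Bmp2 result was not tested.

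Lifr, the ligand-binding receptor subunit, varied little in PBS, where it read 92.7, 129, 130.1, 126 and 100.1 CPM in replicates 7 to 11. It ranged from 89.4 to 243 CPM in SHAM (median 111), from 64.9 to 137 in HG (median 93.4) and from 28.6 to 118 in HG+ORG (median 92.7). SHAM 3 was the high horn and HG+ORG 18 the low one, and all groups overlapped. The means were 6.91 ± 0.52 log2 CPM in SHAM, 6.84 ± 0.23 in PBS, 6.56 ± 0.37 in HG and 6.26 ± 0.76 in HG+ORG, with no neighbours apart beyond their spread. The fitted log2 fold in HG+ORG against SHAM was -0.61 (SE 0.28, edgeR adjusted p = 0.482, interval -1.19 to -0.02). Without SHAM 3 it was -0.32 and without HG+ORG 18 it was -0.45. In PBS against SHAM it was -0.14 (SE 0.29, interval -0.76 to 0.47), and it turned to 0.14 without SHAM 3.

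Il6st, which encodes the shared subunit gp130, read 309, 876, 292, 491 and 321 CPM in PBS 7 to 11. It ranged from 258 to 894 CPM in SHAM (median 442), from 333 to 1550 in HG (median 443) and from 125 to 458 in HG+ORG (median 278). The groups overlapped, although HG+ORG held the lowest horn (replicate 18) and HG the highest (replicate 14). The means were 9.02 ± 0.82 log2 CPM in HG, 8.75 ± 0.65 in SHAM, 8.70 ± 0.67 in PBS and 8.12 ± 0.67 in HG+ORG. The fitted log2 fold in HG+ORG against HG was -1.01 (SE 0.42, edgeR adjusted p = 0.397, interval -1.88 to -0.15). Without HG 14 it was -0.49, with an edgeR adjusted p of 0.9. The PBS and SHAM groups were close, with a fold of -0.04 (SE 0.43, interval -0.94 to 0.85). Over the 23 horns Il6st ran opposite to the neutrophil markers, 6 of 7 tested, with a Spearman rho of -0.72, and Lifr gave -0.56. Without HG+ORG 18, which had the highest neutrophil level and the lowest of both receptor genes, these were -0.68 and -0.50. The neutrophil markers summed to 11.9 to 4210 CPM in HG+ORG, 11.5 to 245 in SHAM, 9.23 to 131 in PBS and 18.9 to 71.9 in HG. S100a8 had no count in SHAM 3 and 4, Cxcr2 none in SHAM 3, and S100a9 and Cxcr2 none in PBS 8. The part of neutrophils in the receptor levels was not tested.

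Stat3, the transcription factor that the receptor activates, had nearly equal group means: 7.86 ± 0.59 log2 CPM in SHAM, 7.83 ± 0.18 in PBS, 7.79 ± 0.49 in HG and 7.71 ± 0.40 in HG+ORG. In PBS it read 203, 211, 215, 234 and 280 CPM in replicates 7 to 11. It ranged from 161 to 499 CPM in SHAM (median 217), from 131 to 359 in HG (median 230) and from 155 to 325 in HG+ORG (median 188). The groups overlapped fully. SHAM 3 was the highest horn, 3.82-fold above HG 17, the lowest. Its value rests on 5053 counts in a total of 13388570, scaled by the low TMM factor of 0.7563. HG 14 held 5008 counts in a total of 12518206, so the rank of SHAM 3 above HG 14 depends on that scaling. The 4-group edgeR test gave an adjusted p of 0.97, and the fold in HG+ORG against PBS was -0.08 (SE 0.28, interval -0.65 to 0.50). In PBS against SHAM it was -0.14 (SE 0.28), and it turned to 0.17 without SHAM 3.

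Stat3 followed Lif over the horns. Pearson's r of their log2 CPM was 0.78 and Spearman's rho 0.79 over 23 horns, and r was 0.70 without HG+ORG 21 and SHAM 3, the horns farthest out in Lif. SHAM 3 and HG+ORG 21, with the most Lif, held 499 and 325 CPM of Stat3, while HG 12, with the least Lif, held 184 CPM. The receptor genes did not follow Lif in this way, with Spearman's rho of 0.02 for Lifr and 0.21 for Il6st. RNA levels of Stat3 do not measure the phosphorylated, active protein.

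Msx1 was the most abundant of the 8 genes and, like Lif, varied widely between horns. In PBS it read 776, 1160, 836, 175 and 465 CPM in replicates 7 to 11. In SHAM it ranged from 132 to 773 CPM (median 674), in HG from 78.2 to 694 (median 547) and in HG+ORG from 26.9 to 1030 (median 614). The 7 lowest horns, at 26.9 to 249.5 CPM, were SHAM 3 and 4, PBS 10, HG 13 and 16, and HG+ORG 18 and 21, and the next horn stood at 465 CPM. This limit was also chosen after the values were seen. It is the widest gap in log2 CPM with HG+ORG 18 left out. Over all horns the widest gap lay between HG+ORG 18 at 4.76 log2 CPM and HG 16 at 6.29. Every group had low horns and high horns, so all groups overlapped. The means were 9.16 ± 1.07 log2 CPM in PBS, 8.78 ± 1.13 in SHAM, 8.47 ± 1.96 in HG+ORG and 8.33 ± 1.38 in HG, and no neighbours differed beyond their spread. The fitted log2 fold in PBS against SHAM was 0.35 (SE 0.68, interval -1.07 to 1.77), and in HG+ORG against PBS it was -0.30 (SE 0.68, interval -1.72 to 1.12).

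Msx2, the close relative of Msx1, ran at lower levels. In PBS it read 44.1, 81.9, 58.4, 50.5 and 32.5 CPM in replicates 7 to 11. It ranged from 13.6 to 61.2 CPM in SHAM (median 37.5), from 9.13 to 43.3 in HG (median 21.8) and from 1.86 to 56.9 in HG+ORG (median 43.0). HG 13, 14 and 16 were well below every PBS horn, HG 12 lay just under the lowest PBS horn at 32.3 CPM, and HG 15 and 17 overlapped PBS. The lowest horn was HG+ORG 18. The means were 5.68 ± 0.49 log2 CPM in PBS, 5.09 ± 0.79 in SHAM, 4.73 ± 1.84 in HG+ORG and 4.27 ± 1.04 in HG. The fitted log2 fold in HG against PBS was -1.19 (SE 0.55, edgeR adjusted p = 0.991, interval -2.34 to -0.04), and leaving out 1 library at a time gave -1.46 to -0.98. It was -0.50 in HG+ORG against PBS and 0.50 in PBS against SHAM (SE 0.55 in both). The fold in HG+ORG against PBS was -0.25 (SE 0.42) without HG+ORG 18.

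Over 23 horns Msx1 and Msx2 rose and fell together, with a Pearson r of 0.84 and a Spearman rho of 0.83, and r was 0.63 without the 2 horns farthest out in Msx1. HG 14 broke the pattern, with 543 CPM of Msx1 and 9.60 CPM of Msx2. Lif ran opposite to Msx1, with r at -0.55 and rho at -0.76. Without HG+ORG 18, which had the lowest Msx1 and 11.4 CPM of Lif, rho was -0.82. Of the 7 horns high in Lif, 5 were among the 7 low in Msx1: SHAM 3 and 4, HG 13 and 16, and HG+ORG 21. The exceptions were HG 14 and HG+ORG 19, high in Lif only, and PBS 10 and HG+ORG 18, low in Msx1 only. The Lif limit was the highest PBS horn and the Msx1 limit a gap, so these counts depend on where the limits were set. Stat3 ran opposite to Msx1 as well (rho -0.56), as did Lif to Msx2 (rho -0.63). These coefficients describe libraries that share tissue makeup and depth.

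The horns' levels of steroid-responsive genes moved with Lif, Stat3 and Msx1. The mean of 8 genes that respond to progesterone in the uterus, of 10 listed, had a Spearman rho of -0.64 with Lif, -0.63 with Stat3 and 0.64 with Msx1 over the 23 horns. It stood at 2.16 and 1.78 log2 CPM in SHAM 3 and 4, 2.80 and 2.60 in HG 13 and 16 and 2.68 in HG+ORG 21, the horns high in Lif and low in Msx1. In HG 14, high in Lif with high Msx1, it stood at 6.82. The list summed to 402 to 1150 CPM in SHAM, 372 to 1860 in PBS, 295 to 1460 in HG and 119 to 1320 in HG+ORG, and Zbtb16 had no count in SHAM 4. The 8 estrogen-responsive epithelial genes had a rho of 0.52 with Lif, 0.60 with Stat3 and -0.40 with Msx1. Their mean was 11.40 log2 CPM in SHAM 3 and 11.24 in HG+ORG 21, but HG 14, also high in Lif, had the lowest of all 23 horns, at 5.37. They summed to 8370 to 86100 CPM in SHAM, 3030 to 41300 in PBS, 388 to 34700 in HG and 1540 to 77400 in HG+ORG, with no marker at 0. Cell type markers moved with Lif and Msx1 too. The 6 mesothelial markers had a rho of 0.55 with Lif, -0.58 with Msx1 and -0.59 with Msx2, and summed to 23.3 to 112 CPM in SHAM, 6.20 to 78.4 in PBS, 33.9 to 196 in HG and 13.8 to 61.3 in HG+ORG, with Upk1b and Lrrn4 at 0 in PBS 8. The gland markers, 4 of 7 tested, had a rho of -0.47 with Lif and 0.52 with Msx1, and summed to 146 to 650 CPM in SHAM, 180.0 to 1010 in PBS, 123 to 835 in HG and 149 to 778 in HG+ORG, with Ttr at 0 in some horns of every group. The epithelial markers had a rho of 0.49 with Lif and 0.61 with Stat3, but -0.26 with Msx1 and -0.10 with Msx2. Smooth muscle markers had -0.59 with Msx1 and 0.35 with Lif. Stromal markers had -0.52 with both Msx1 and Msx2 and 0.27 with Lif. Endothelial markers had -0.42 with Msx1, -0.41 with Msx2 and 0.16 with Lif. Some lists share genes: Sox17 is in the gland and progesterone lists, and Hand2 in the progesterone and stromal lists. The part of cycle stage or cell makeup in these patterns was not tested.

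The other genes of these pathways were read from lists of named genes. None passed edgeR's adjusted threshold in any of the 6 comparisons, as none of all genes did, and limma-voom called none either. The unadjusted counts of each list below stand beside 2.17% of all genes in PBS against SHAM, 6.09% in HG+ORG against PBS and 9.81% in HG+ORG against HG, and, without HG+ORG 18, beside 3.22%, 2.77% and 12%. Nothing particular to a list is read from such counts. Among 10 tested genes of the IL-6 family, 0 met an unadjusted p under 0.05 in PBS against SHAM and 2, both higher, met it in HG+ORG against PBS (6.09% of all genes). These were Osm, encoding oncostatin M, with a log2 fold of 5.09 (SE 1.78, edgeR adjusted p = 0.709), and Il6, with 3.29 (SE 1.22, adjusted p = 0.716). Without HG+ORG 18 the folds were 1.56 and 2.66, and Osm alone met it in HG+ORG against HG (log2 fold 5.51, SE 1.68, 1.97 without HG+ORG 18). DESeq2 called Osm in this last comparison, at 5.56 (adjusted p = 0.00834), as 1 of 163 genes, or 0.92% of all. Il6 was also higher with the hydrogel alone, at 3.46 in HG against PBS (SE 1.23, edgeR adjusted p = 0.991). It stood at -0.17 (SE 1.00) in HG+ORG against HG. Osm stood at -0.41 (SE 1.52) in HG against PBS. With HG+ORG 18 left out the list held 1 gene, higher, in HG+ORG against PBS, and 0 higher and 2 lower in HG+ORG against HG. The macrophage markers of that horn are given above, and their part in these values was not tested. The median fold of the list was -0.07 in PBS against SHAM (all genes 0.02) and 0.52 in HG+ORG against PBS (all genes 0.05).

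Of 17 genes of Janus kinase and STAT3 signalling, feedback and targets, 0 met the unadjusted level in PBS against SHAM and 2 in HG+ORG against PBS (2.17% and 6.09% of all genes). They were Cebpb, a transcription factor gene of decidualizing stroma, with a fold of 2.04 (SE 0.78, adjusted p = 0.723), and Socs3, the feedback inhibitor of gp130 signalling, with 2.24 (SE 0.93, adjusted p = 0.782, edgeR). Both shrank without HG+ORG 18, to 0.51 and 1.24. With the hydrogel alone, in HG against PBS, Socs3 had a fold of 1.97 (SE 0.91, edgeR adjusted p = 0.991) and Cebpb 0.51 (SE 0.75). Socs3 stood at 0.27 (SE 0.82) in HG+ORG against HG. The smallest p in PBS against SHAM belonged to Lrg1, with a fold of -2.46 (SE 1.37), and Igfbp3, with 1.78 (SE 1.00), both at an edgeR adjusted p of 1. In HG+ORG against HG these were Cebpb at 1.53 (SE 0.72) and Socs1 at -0.77 (SE 0.37), 1 in each direction. Without HG+ORG 18 Cebpb stood at -0.01 there and the list held 0 higher and 3 lower, and in HG+ORG against PBS 0 higher and 1 lower. The list's median was -0.22 in PBS against SHAM and 0.26 in HG+ORG against PBS, beside 0.02 and 0.05 for all genes.

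Of 14 tested EGF-family ligands, receptors and regulators, 0 met the unadjusted level in PBS against SHAM, HG+ORG against PBS or HG+ORG against HG. Erbb4, a receptor that HB-EGF binds, had a fold of 1.29 in PBS against SHAM (SE 0.77) and -1.48 in HG+ORG against PBS (SE 0.77), 2 comparisons that share the PBS horns. Without HG+ORG 18 the latter fold was -1.96 (SE 0.81, edgeR adjusted p = 1), and Erbb4 was then the 1 gene of the list, lower, at the unadjusted level. Its mean was 1.05 ± 1.16 log2 CPM in PBS and -0.06 ± 1.00 in SHAM, so the gene was low throughout. The other genes of smallest p were Adam10, a sheddase, at -0.41 (SE 0.25) in PBS against SHAM, the neuregulin gene Nrg1 at -0.91 (SE 0.44) in HG+ORG against PBS, and Nrg1 at -0.72 and Cd9 at 0.52 in HG+ORG against HG. Cd9 stood at 0.27 without HG+ORG 18. The list's medians were -0.16, -0.10 and 0.17 in these 3 comparisons, and the second turned to 0.02 without that horn. In HG against SHAM 3 of the 14 met the unadjusted level, beside 11.3% of all genes. They were Egf at 0.89 (SE 0.33), Adam10 at -0.73 (SE 0.24) and Adam17 at -0.28 (SE 0.13). In HG against PBS 1 met it, Erbb4 at -1.95 (SE 0.78), beside 3.37% of all genes.

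Of 21 tested genes of BMP signalling, 0 met the unadjusted level in PBS against SHAM, 1 in HG+ORG against PBS and 4, all lower, in HG+ORG against HG (2.17%, 6.09% and 9.81% of all genes). The counts were 0, 2 and 4 without HG+ORG 18. In HG+ORG against PBS it was Acvr2a, a type II receptor gene, at -0.65 (SE 0.28, edgeR adjusted p = 0.792), while Bmp6 stood at -1.12 (SE 0.55) there and at 0.96 (SE 0.55) in PBS against SHAM. In HG+ORG against HG the smallest p belonged to the BMP antagonists Nog, at -3.97 (SE 1.21, adjusted p = 0.273), and Chrd, at -1.75 (SE 0.56, adjusted p = 0.281). Leaving out HG+ORG 18 gave -5.21 for Nog (SE 1.32, edgeR adjusted p = 0.169) and -1.68 for Chrd. Nog averaged 1.20 ± 2.50 log2 CPM in HG, -0.72 ± 1.62 in PBS, -0.86 ± 1.25 in SHAM and -1.50 ± 1.27 in HG+ORG. HG was thus the high group, and in HG against SHAM the fold of Nog was 3.20 (SE 1.14, edgeR adjusted p = 0.277). Bmp2 had a fold of -1.17 (SE 0.80, edgeR adjusted p = 0.735) in HG+ORG against HG.

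Of 26 further implantation and receptivity genes, 0 met the unadjusted level in PBS against SHAM, 3 in HG+ORG against PBS and 8 in HG+ORG against HG (2 higher and 6 lower), beside 2.17%, 6.09% and 9.81% of all genes. The counts were 1, 2 and 10 without HG+ORG 18. Nr2f2, the stromal target of Indian hedgehog, averaged 6.51 ± 0.16 log2 CPM in SHAM, 6.90 ± 0.11 in PBS, 6.99 ± 0.46 in HG and 6.39 ± 0.33 in HG+ORG. Its fold was 0.39 (SE 0.19, edgeR adjusted p = 1) in PBS against SHAM, -0.49 (SE 0.19, adjusted p = 0.727) in HG+ORG against PBS and -0.63 (SE 0.18, adjusted p = 0.27) in HG+ORG against HG. Without HG+ORG 18 the latter values were -0.39 and -0.55. Gli1, a hedgehog target, had a fold of -4.68 (SE 1.33, adjusted p = 0.27, edgeR) in HG+ORG against HG. It averaged 2.66 ± 2.90 log2 CPM in HG, 0.75 ± 1.45 in SHAM, 0.28 ± 2.25 in PBS and -0.36 ± 1.25 in HG+ORG. In HG against SHAM its fold was 3.41 (SE 1.24, edgeR adjusted p = 0.287). Spp1, encoding the adhesion protein osteopontin, had a fold of 3.32 (SE 1.25) in HG+ORG against PBS, which was 0.10 without HG+ORG 18. Ptgs2, encoding cyclooxygenase-2, had -1.98 (SE 1.16) in PBS against SHAM. In HG against SHAM 8 of the 26 met the unadjusted level, all higher, beside 11.3% of all genes, and the list's median was -0.01. DESeq2, which called 1.59% of all genes in HG against SHAM and 0.92% in HG+ORG against HG, called the homeobox genes Hoxa10 and Hoxa11 in the former, at 3.16 and 3.17 (adjusted p = 0.0349 for both), and in the latter it called Gli1 at -4.71 (adjusted p = 0.00739), Hoxa10 at -3.37 (adjusted p = 0.0244) and Hoxa11 at -3.49 (adjusted p = 0.0192). Hoxa10 and Hoxa11 were named after their values were seen, and both are also among the 10 stromal markers given with Bmp2.

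For each of the 8 genes the 3 genes of likest pattern were taken, by Spearman's rho of log2 CPM over the 23 horns among 13466 genes with a mean of at least 1 CPM. For Lif they were Lpar1, Hs3st1 and Amigo3, each with a rho of 0.85, and for Stat3 they were Jak3 (0.90), Sema4a (0.89) and Plekhg1 (0.88). For Il6st they were Kank1 (0.91), Zfyve16 (0.88) and Syt6 (0.87), and for Lifr Nrip1 (0.81), Sema3a and Naxd (0.74 each). Bmp2 was likest to Tcf4 (0.94), Gucy1a1 and Gucy1b1 (0.92 each). Msx1 was likest to Stc1 (0.95), Amt and Patz1 (0.94 each), and Msx2 to Zfp618 (0.92), Chst9 (0.91) and Pla2g5 (0.90). Hbegf had the weakest likeness, with Capn15 at 0.71, Slc25a47 at 0.70 and Pank4 at 0.67. These are the highest of many coefficients over shared libraries and are given as a description.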

How the data were processed

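Endometrium of 23 uterine horns was profiled by poly(A), stranded, single-end RNA sequencing on an Illumina NextSeq, per the labels' protocols. The table the authors deposited holds raw read counts per gene. Per the submitters' processing notes, the authors' tools included HISAT2 2.2.1, Trimmomatic 0.39, featureCounts 2.0.3 and DESeq2 1.42.1, with genome build GRCm39. The strand setting and annotation release are not stated, so overlapping and antisense genes may share reads. Each of the 18682 features had at least 10 counts in at least 3 libraries. Identifiers gave a symbol for 18341.

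The counts were analysed in edgeR 4.0.16 (R 4.3.3) with TMM factors and filterByExpr by group, which removed 974 features and kept 17708. A single quasi-likelihood fit held all 4 groups and no covariate. The 6 contrasts and a 4-group test were adjusted by Benjamini-Hochberg at 0.05 over all genes. Each SE was derived as the size of the log2 fold divided by the root of the F statistic. Log2 CPM has a prior count of 2, and values in the text are TMM-scaled CPM. Exon lengths came from GENCODE M21 (GRCm38), another build than that of the counts, and serve only to compare levels between genes. The fit was also run on simulated counts, drawn around a pooled mean per gene with folds added to some genes. These counts lack the differences in tissue makeup between horns, and no result here rests on that run. Alternatives were DESeq2 1.42.0, limma 3.58.1 (voom), RLE factors, fits on 2 groups, marker scores as covariates, SHAM 5 and 6 averaged, no low-count filter and leaving out each library.

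The members and lists were chosen with earlier results of these data known. All matched members are named, with folds followed through the alternatives in PBS against SHAM and HG+ORG against PBS, and elsewhere where the unadjusted p was under 0.05. Of each pathway list the members past the threshold are named or, with none, the 2 of smallest p in PBS against SHAM, HG+ORG against PBS and HG+ORG against HG. Cntf, Ereg, Epgn, Grem1, Calca, Prss28 and Prss29 of the pathway lists were not analysed here. Motifs were searched on both strands of RefSeq windows of 250 bases (GRCm38.p6). Bmp2 and Hbegf windows were not used here.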

Additional observations from a re-analysis of the deposited data

Results flagged for a closer look

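In each of the 32 sets made of 1 gene and 1 group, the highest and lowest horns were compared with the rest of their group by Dixon's ratio, and 3 horns stood apart. Chance alone sets apart about 5% of such groups. Lifr in SHAM 3 stood at 7.93 log2 CPM, above a next horn at 6.87. The same horn was the highest for Stat3. Il6st in HG 14 stood at 10.60 log2 CPM, above a next horn at 9.13. Msx2 in HG+ORG 18 stood at 1.01 log2 CPM, far below a next horn at 5.01. That horn was also the lowest of all 23 for Msx1, Lifr and Il6st. The results give the fold of Lifr without SHAM 3, of Il6st without HG 14 and of Msx2 without HG+ORG 18.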

How the results depend on the processing

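Over 31 alternatives, 588 of the 620 recomputed folds of the 8 genes kept their sign and 32, of 7 folds, changed it, and 1 fold, Bmp2 in HG against SHAM, passed the adjusted threshold in 1 setting. Counts of genes called, 0 throughout the reported fit, moved with DESeq2 to 1 in PBS against SHAM, 281 in HG against SHAM, 83 in HG+ORG against SHAM, 163 in HG+ORG against HG and 278 in the 4-group test, and to 386 in HG against SHAM fitted on those 2 groups. Leaving out 1 library gave 0 to 1 gene in HG+ORG against HG (1 without PBS 10) and 0 to 39 in the 4-group test (39 without HG+ORG 22), and 0 in the other 5 comparisons. The fold of Hbegf in PBS against SHAM turned to -0.01 with RLE factors and with DESeq2, -0.03 with limma-voom, -0.04 with the smooth muscle covariate and 0.00, just on the other side, on the 2 groups alone and with SHAM 5 and 6 averaged. Bmp2 in PBS against SHAM turned to -0.70 with limma-voom and -0.31 with the smooth muscle covariate, and in HG+ORG against PBS to 0.60 and 0.88. With the epithelial covariate Lifr and Il6st in PBS against SHAM turned to 0.04 and 0.01. Leaving out 1 library gave ranges across 0 in PBS against SHAM for Lifr (-0.23 to 0.14), Il6st (-0.41 to 0.23), Stat3 (-0.25 to 0.17) and Hbegf (-0.10 to 0.11), and in HG+ORG against PBS for Bmp2 (-0.71 to 0.39, positive without PBS 7 or PBS 10) and Stat3 (-0.23 to 0.02). The causes of these changes were not tested. No paired analysis was possible because the sources used here do not say which horns came from the same mouse. The replicate numbers, 1 to 23, do not show it either. At these depths Bmp2 rests on 0 to 74 counts per library, so its values carry counting error beside the spread between horns.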
